A study of Mus musculus with 495 samples.

Results

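Plates EA01, EA02 and EA03 of this mouse series each held cells of well rows A, B, E and F, compared here with cells of well rows C and G of the same plate. The members were set by plate and row letter, with rows D and H left out, which gave 200 of the 495 cells in the series. This choice was made with earlier results of these data known, so the adjusted p-values below are not from a blind comparison. Rows ABEF held 136 cells, 46 on EA01, 46 on EA02 and 44 on EA03. Rows CG held 64 cells, 21 on EA01, 20 on EA02 and 23 on EA03. The 15 cells of rows D and H of these plates were not used. Every one of the 200 cells came from embryonic pancreas at E15.5 and carried the Neurog3-eGFP knock-in, in which a green reporter sits in the Neurog3 locus, so both sets of rows share stage, tissue and allele. The labels give plates EA01 and EA03 the plate code Neurog3 and plate EA02 the plate code endocrine. They do not say what a row letter stands for, which gate sorted a well, how many knock-in copies an embryo had or which animals and litters filled a plate. The 3 plates were used as 3 repeats, so p-values measure only the spread between plates, which may be technical. RNA of single cells was read with Smart-seq2, a full-length method without molecular identifiers.

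The basic helix-loop-helix factor Neurog3 sets epithelial progenitors of the mouse pancreas on the path to islet endocrine cells. It is made for a short time in cells that leave the duct-like epithelium and stop dividing. Later steps of the lineage bring on Fev and Pax4, then the hormones, the convertases that process them and the granins of the secretory granule. Both sets of rows held cells of this lineage. Levels are given as CPM, the counts of a gene scaled to the total of its sum or cell. Neurod1, a factor switched on downstream of Neurog3, reached 20 CPM in 104 of 136 cells of rows ABEF and in 55 of 64 cells of rows CG.

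The start of transcription of the gene with the strongest call on the higher side, Spp1, and of 3 called on the lower side, Iapp, Ins1 and G6pc2, is shown to place these genes in the genome. Each line holds the 250 bases before the start on the plus strand in the RefSeq table, build GRCm38.p6, in lower case, with every CANNTG in capitals. CANNTG is the E-box core that Neurog3 and other basic helix-loop-helix factors can bind, and it reads as CANNTG on both strands. The stretch of Spp1 is chr5:104434861-104435110, that of Iapp chr6:142298175-142298424, that of Ins1 chr19:52264047-52264296 and that of G6pc2 chr2:69210823-69211072. The table lists 2 starts for Spp1 and for G6pc2, of which the first is shown.
Spp1: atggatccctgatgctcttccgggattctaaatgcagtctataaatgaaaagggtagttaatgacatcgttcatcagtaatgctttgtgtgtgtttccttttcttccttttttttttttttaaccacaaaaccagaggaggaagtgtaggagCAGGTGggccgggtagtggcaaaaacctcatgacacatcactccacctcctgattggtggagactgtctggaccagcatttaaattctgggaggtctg
Iapp: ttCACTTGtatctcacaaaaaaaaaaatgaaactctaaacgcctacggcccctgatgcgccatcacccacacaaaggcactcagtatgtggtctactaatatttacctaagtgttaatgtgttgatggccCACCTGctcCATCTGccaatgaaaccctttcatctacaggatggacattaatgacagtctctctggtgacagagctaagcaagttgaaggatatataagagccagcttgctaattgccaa
Ins1: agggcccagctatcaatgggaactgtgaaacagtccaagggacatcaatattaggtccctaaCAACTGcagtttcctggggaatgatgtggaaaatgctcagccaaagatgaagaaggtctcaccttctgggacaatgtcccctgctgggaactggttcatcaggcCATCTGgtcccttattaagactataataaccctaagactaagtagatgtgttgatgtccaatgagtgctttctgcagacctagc
G6pc2: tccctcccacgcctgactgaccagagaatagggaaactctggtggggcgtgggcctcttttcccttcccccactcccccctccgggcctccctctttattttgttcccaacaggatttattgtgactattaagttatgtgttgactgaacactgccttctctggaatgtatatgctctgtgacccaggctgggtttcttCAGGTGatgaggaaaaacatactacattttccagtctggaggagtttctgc
The Spp1 stretch held 1 CANNTG, that of Iapp 3, that of Ins1 2 and that of G6pc2 1. A CANNTG was present in 66.1% of 27018 promoters of the same length. The form CAGATG, searched on both strands, was present once in the Iapp and once in the Ins1 stretch and in 14.5% of all promoters. TAAT, the core that many homeodomain factors bind, was searched on both strands as well. It was found 2 times for Spp1, 5 times for Iapp, 3 times for Ins1 and 1 time for G6pc2, and in 55.3% of all promoters. These matches describe letters and are not binding sites.

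The median cell held 500255 counts in rows ABEF and 495428 counts in rows CG, as means of the 3 plate medians. The 200 cells held 200152 to 902318 counts each, and the sums over rows ABEF were 24603449, 21796142 and 21379663 counts on EA01, EA02 and EA03, against 10298314, 9546361 and 10941858 counts over rows CG. The number of genes with a count moved with the rows. The median cell of rows ABEF had 2391.5, 2429 and 2422.5 genes on EA01, EA02 and EA03, against 2562, 2637 and 2579 genes in rows CG. The mean difference was -178 genes, lower in rows ABEF in 3 of 3 plates, with an exact two-sided permutation p of 0.25, the smallest that swapping the sets within 3 plates can give. After each cell was thinned to 200152 counts it was -184 genes. Rn45s, the ribosomal RNA precursor, took a median of 21.1%, 23.0% and 22.5% of counts in rows ABEF, against 20.7%, 20.9% and 22.1% in rows CG. The part of these measures in the results below was not tested.

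Cells of other pancreatic types were few. Among rows ABEF, 1 cell of EA02 held 52988 CPM over the acinar markers, and 1 cell of EA03 held 11738 CPM over the mesenchyme markers. No other cell of the 200 reached 10000 CPM in either list. Summed over all cells, the 14 acinar markers stood at 118, 1609 and 211 CPM in rows ABEF, against 29.1, 25.8 and 278 CPM in rows CG. The 10 mesenchyme markers summed to 86.4, 120 and 320 CPM in rows ABEF, against 0.777, 83.4 and 17.7 CPM in rows CG. The endothelial, immune, erythroid and neural crest lists summed to 13.1 CPM or less in every set of rows on every plate, and 6 of 8 endothelial markers were at 0 in all 6 sums. Results that changed without those 2 cells are named below with the value without them.

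Counts were summed over the cells of each set on each plate, and the 6 sums were compared with edgeR's quasi-likelihood test with plate as a block. A gene was called at a Benjamini-Hochberg adjusted p under 0.05 with the same direction in all 3 plates. Of 10862 genes tested, 23 were called, which is 0.212%. Rows ABEF were higher for 7 genes, 0.0644% of those tested, and lower for 16 genes, 0.147%. Many more genes pointed one way on all 3 plates, 2237 higher in rows ABEF, 20.6%, and 1622 lower, 14.9%, together 35.5%. Every plate of rows ABEF lay beyond every plate of rows CG on one side or the other for 2219 genes, 20.4%, and for all 23 called genes. The called genes were picked from these same sums. An unadjusted p under 0.05 was reached by 957 genes, 8.81%, with 5.11% of all genes higher in rows ABEF and 3.70% lower. The fitted median of all genes was 0.20 on the log2 scale, so a change near that size is near the middle of the table. In bulk sums of this kind, fewer cells that make an RNA and less of that RNA per cell cannot be told apart, and the shares of cells are given further on.

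The number of calls changed when 1 plate was left out, which also leaves fewer sums for the test. Without EA02, the plate with the endocrine code, edgeR made 0 calls in either direction, with 330 genes higher and 276 genes lower at an unadjusted p under 0.05. The part of the plate code in this was not tested. Without EA01 there were 1 higher and 4 lower calls, and without EA03 there were 42 and 28. DESeq2 on the same 6 sums called 1186 genes higher, 10.9%, and 820 lower, 7.55%, by adjusted p alone, of which 1001 and 714 had one direction on all 3 plates. The 7 higher and the 16 lower genes kept their direction under each of the alternatives run.

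**Figure D1:**
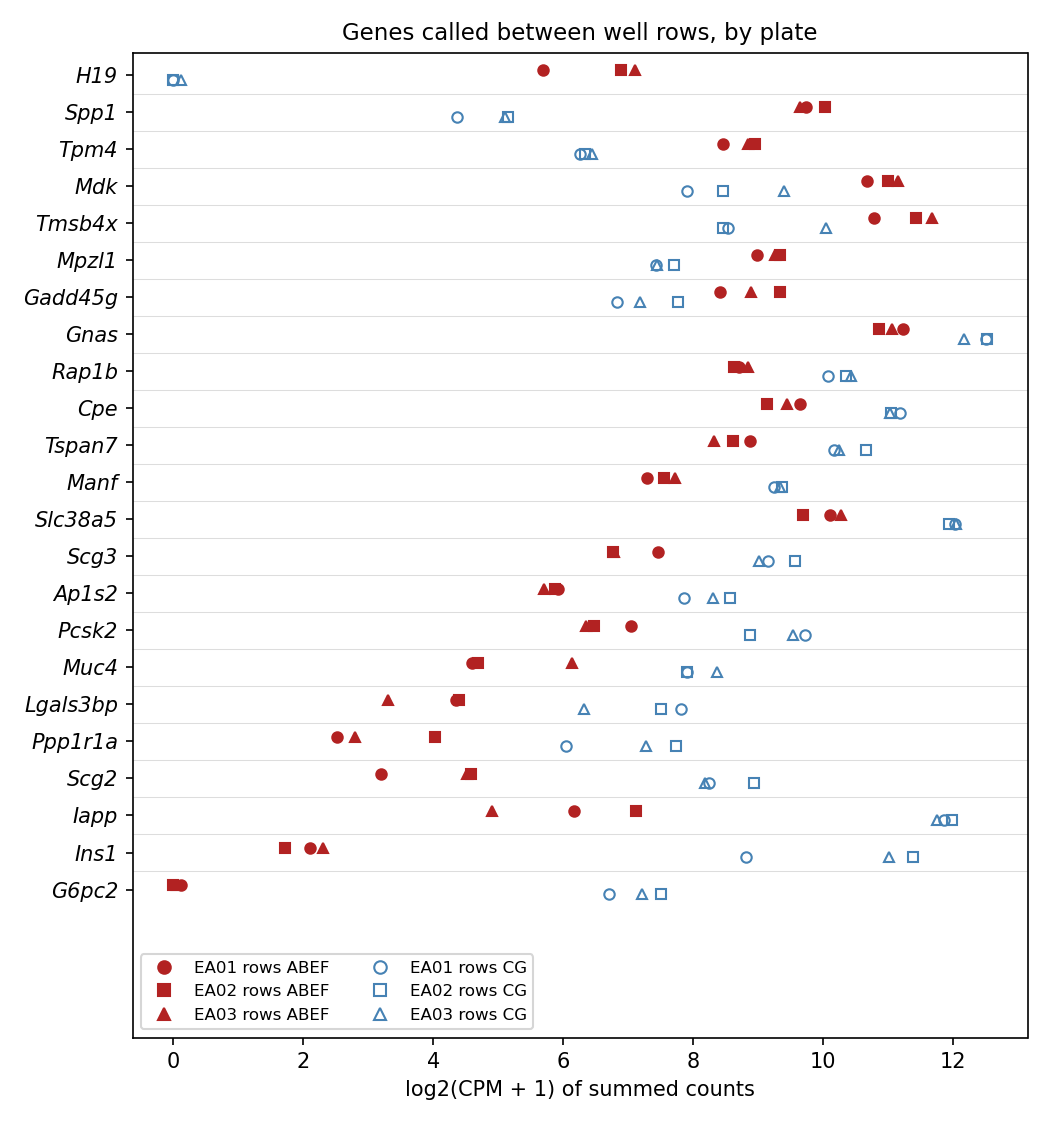
Level of the 23 called genes, as log2(CPM + 1) of the summed counts on the horizontal axis, with 1 symbol for each plate and set of rows, filled for rows ABEF above open for rows CG. For each gene the 3 plates of rows ABEF lie on one side of the 3 plates of rows CG, from Spp1 at 798 CPM or more against 34.7 CPM or less to Gnas at 2413 CPM or less against 4584 CPM or more.

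On the higher side stood Spp1, which encodes osteopontin, a secreted phosphoprotein of the duct epithelium. Spp1 had 850, 1046 and 798 CPM in rows ABEF of EA01, EA02 and EA03, against 19.7, 34.7 and 33.4 CPM in rows CG. Every plate of rows ABEF was far above every plate of rows CG. The fitted log2 difference was 4.99 ± 0.265 (SE), with an edgeR quasi-likelihood adjusted p of 0.00414, the one call below 0.01. Row by row the sets touched, since the lowest of the 12 single rows of rows ABEF had 48.3 CPM and the highest of the 6 single rows of rows CG had 67.2 CPM.

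H19, an imprinted long non-coding RNA abundant in fetal tissue, had almost no counts in rows CG. It had 50.7, 117 and 136 CPM in rows ABEF, against 0, 0 and 0.0914 CPM in rows CG. That is 6718 counts against 1 count, a log2 ratio of 11.58 with a counting interval of 9.10 to 16.88 at 95% confidence. The edgeR quasi-likelihood adjusted p was 0.0261. Without the acinar and the mesenchyme cell the fitted log2 difference stayed large, at 10.82, while the adjusted p was 0.0856 and the call was lost. In all, 37 of 136 cells of rows ABEF and 0 of 64 cells of rows CG reached 20 CPM. A count of 0 of 64 cells allows a share of up to 4.69% at a floor of 3 cells, and of up to 5.60% by the Clopper-Pearson limit at 95%. A single cell gave 28.2% of all H19 counts of rows ABEF.

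A growth factor gene and 2 genes of actin-binding proteins were also called higher. Mdk, which encodes midkine, a heparin-binding growth factor of the embryo, had 1643, 2049 and 2286 CPM in rows ABEF, against 240, 350 and 677 CPM in rows CG. Its log2 difference was 2.37 ± 0.240 (SE) with an edgeR quasi-likelihood adjusted p of 0.0262, and every single row of rows ABEF was above every single row of rows CG. Tpm4, a tropomyosin that winds along actin filaments, had 353, 495 and 458 CPM in rows ABEF, against 75.3, 80.1 and 85.7 CPM in rows CG, a log2 difference of 2.44 ± 0.228 (SE, edgeR quasi-likelihood adjusted p = 0.0221). The rows CG of the 3 plates were close to each other for Tpm4, and no single row crossed over. Tmsb4x, thymosin beta 4, which holds actin monomers, had 1755, 2761 and 3284 CPM in rows ABEF, against 369, 353 and 1052 CPM in rows CG. EA03 was the high plate in both sets. The log2 difference was 2.30 ± 0.267 (SE, edgeR quasi-likelihood adjusted p = 0.0419).

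Mpzl1, a transmembrane protein of the immunoglobulin family, had 507, 647 and 614 CPM in rows ABEF, against 171, 208 and 173 CPM in rows CG. Gadd45g, a growth-arrest and stress gene, had 341, 643 and 474 CPM in rows ABEF, against 113, 217 and 144 CPM in rows CG. For both, the lowest plate of rows ABEF lay above the highest plate of rows CG. Their log2 differences were 1.69 ± 0.191 (SE) and 1.64 ± 0.196 (SE), each with an edgeR quasi-likelihood adjusted p of 0.0419.

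Iapp and Ins1, hormone genes of the beta cell, were among the lower calls. Iapp, which encodes amylin, a peptide released together with insulin, had 70.9, 138 and 29.0 CPM in rows ABEF, against 3733, 4039 and 3458 CPM in rows CG. All 12 single rows of rows ABEF were at 497 CPM or less and all 6 single rows of rows CG were at 1797 CPM or more. Iapp fell by 5.81 ± 0.431 on the log2 scale (SE, edgeR quasi-likelihood adjusted p = 0.0148). Ins1, which in mice encodes one of the insulins, had 3.29, 2.29 and 3.93 CPM in rows ABEF, against 447, 2674 and 2062 CPM in rows CG. EA01 was low for Ins1 within rows CG. The log2 difference was -8.76 ± 0.709 (SE, edgeR quasi-likelihood adjusted p = 0.0148). Ins2, the other mouse insulin gene, had 228, 143 and 27.7 CPM in rows ABEF, against 1783, 4132 and 3988 CPM in rows CG, and was not called, with an edgeR quasi-likelihood adjusted p of 0.105. The insulin genes are near-identical in their coding parts, and how shared reads were counted is not given in the sources used here.

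G6pc2, the islet form of the catalytic subunit of glucose-6-phosphatase, was close to absent from rows ABEF. It had 0.0813, 0 and 0.0468 CPM there, against 103, 180 and 148 CPM in rows CG. In counts this was 3 against 4405, a log2 ratio of -11.66 with a counting interval of -13.94 to -10.11. The edgeR quasi-likelihood adjusted p was 0.0148, and 0 of 136 cells of rows ABEF reached 20 CPM, against 13 of 64 cells of rows CG. A count of 0 of 136 cells allows a share of up to 2.21% at a floor of 3 cells, and of up to 2.68% by the Clopper-Pearson limit at 95%. Ppp1r1a, an inhibitor of protein phosphatase 1, had 4.76, 15.3 and 5.99 CPM in rows ABEF, against 65.0, 212 and 155 CPM in rows CG. Its log2 difference was -4.07, and its call, at an edgeR quasi-likelihood adjusted p of 0.0419, was lost without the acinar and the mesenchyme cell, at an adjusted p of 0.375 and a log2 difference of -5.56, which is no smaller.

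Of the lower calls, 4 belong to the secretory granule and to prohormone processing. Scg2, secretogranin II, had 8.13, 22.8 and 22.0 CPM in rows ABEF, against 302, 490 and 290 CPM in rows CG. It fell by 4.44 on the log2 scale (edgeR quasi-likelihood adjusted p = 0.0148). Pcsk2, the convertase that cuts proglucagon and proinsulin, had 131, 87.9 and 80.9 CPM in rows ABEF, against 841, 469 and 740 CPM in rows CG. Cpe, the carboxypeptidase that trims the cut ends, had 797, 563 and 695 CPM in rows ABEF, against 2334, 2102 and 2088 CPM in rows CG. For both processing enzymes the sets were apart on every plate, with log2 differences of -2.75 and -1.67 and edgeR quasi-likelihood adjusted p-values of 0.0148 and 0.0234. Scg3, secretogranin III, had 175, 108 and 109 CPM in rows ABEF, against 566, 762 and 513 CPM in rows CG. Its log2 difference was -2.23, with an edgeR quasi-likelihood adjusted p of 0.0419 and, without the acinar and the mesenchyme cell, of 0.0514 at a log2 difference of -2.27.

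The remaining lower calls covered transport, signalling and the cell surface. Slc38a5, a glutamine transporter also known from alpha cells, had 1106, 825 and 1242 CPM in rows ABEF, against 4187, 3919 and 4205 CPM in rows CG. The 3 plates were close within each set. Slc38a5 fell by 1.96 ± 0.158 on the log2 scale (SE, edgeR quasi-likelihood adjusted p = 0.0148). Gnas, which encodes the stimulatory G protein alpha subunit and lies in a locus with overlapping transcripts, had 2413, 1853 and 2143 CPM in rows ABEF, against 5821, 5870 and 4584 CPM in rows CG. Tspan7, a tetraspanin of endocrine and nerve cells, had 470, 391 and 320 CPM in rows ABEF, against 1155, 1620 and 1217 CPM in rows CG. Both were lower on every plate, by log2 differences of -1.33 and -1.75 at an edgeR quasi-likelihood adjusted p of 0.0419 each.

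Manf, an endoplasmic reticulum protein released under stress, had 156, 186 and 211 CPM in rows ABEF, against 604, 656 and 642 CPM in rows CG. Rap1b, a small GTPase, had 418, 397 and 457 CPM in rows ABEF, against 1079, 1307 and 1372 CPM in rows CG. These 2 genes had log2 differences of -1.78 and -1.54, with edgeR quasi-likelihood adjusted p-values of 0.0375 and 0.0400. Muc4, a membrane mucin, had 23.1, 24.7 and 69.6 CPM in rows ABEF, against 239, 239 and 328 CPM in rows CG, a log2 difference of -2.95. Ap1s2, a small subunit of the AP-1 clathrin adaptor, had 59.5, 57.4 and 51.3 CPM in rows ABEF, against 232, 380 and 317 CPM in rows CG, a log2 difference of -2.43. Lgals3bp, a secreted galectin-binding glycoprotein, had 19.4, 20.1 and 8.89 CPM in rows ABEF, against 223, 181 and 78.8 CPM in rows CG, a log2 difference of -3.27. These last 3 genes had an edgeR quasi-likelihood adjusted p of 0.0419 each, and no plate of one set overlapped the other set.

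Neurog3 itself, on chromosome 10 at 62133090 to 62134763 (GRCm38, GENCODE M21), was not called. It had 2959, 2989 and 3122 CPM in rows ABEF of EA01, EA02 and EA03, against 310, 469 and 1564 CPM in rows CG. The plates of rows ABEF were alike, whereas rows CG of EA03 stood well above rows CG of the other plates. The log2 difference was 2.34 ± 0.428 (SE) with an edgeR quasi-likelihood adjusted p of 0.137, and it was called without EA03 at 0.00162 and by DESeq2 at 0.00357. The reads of the GFP reporter had 19.4, 25.2 and 27.5 CPM in rows ABEF and 0 CPM in rows CG of all 3 plates. That is 1614 counts against 0, at least 244-fold higher against a floor of 3 counts over rows CG, which is 0.0974 CPM. Such a bound covers counting error of reads only, not the spread between cells or plates. Its edgeR quasi-likelihood adjusted p was 0.418.

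Of the 15 tested genes of the Neurog3 progenitor list, 0 were called by edgeR. At an unadjusted p under 0.05, 8 were higher, against 5.11% of all genes. DESeq2 called 8 higher and 0 lower, against 10.9% and 7.55% of all genes. Rows ABEF were above rows CG on all 3 plates for 11 of the 15 and below for 0, against 20.6% and 14.9% of all genes. The list's median log2 difference was 2.34, against 0.20 over all genes. Btbd17, a BTB domain gene known from Neurog3 progenitors of the mouse, had 261, 392 and 480 CPM in rows ABEF, against 13.1, 48.9 and 99.8 CPM in rows CG (edgeR quasi-likelihood adjusted p = 0.0696). Hes6, a Hes family factor that is switched on in Neurog3 cells, had 704, 744 and 766 CPM in rows ABEF, against 40.9, 92.0 and 366 CPM in rows CG (edgeR quasi-likelihood adjusted p = 0.177). Smarcd2, a subunit of the SWI/SNF chromatin remodeller, had 253, 525 and 503 CPM in rows ABEF, against 38.4, 102 and 206 CPM in rows CG (edgeR quasi-likelihood adjusted p = 0.0941). In all 3 genes, as in Neurog3, EA03 gave the highest value of rows CG. Pax4, a repressor that acts early in the beta and delta branch, is not in this list but in the Fev precursor list. It had 1238, 897 and 1235 CPM in rows ABEF, against 173, 325 and 449 CPM in rows CG (edgeR quasi-likelihood adjusted p = 0.105). The Fev precursor list had 5 tested genes, of which 0 were called by edgeR, with a median of -0.46. On all 3 plates 2 of them were higher in rows ABEF and 3 lower, against 20.6% and 14.9% of all genes.

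Among the 13 tested genes of the duct and progenitor list, Spp1 was the 1 called, against 0.0644% of all genes called higher. On all 3 plates 8 were higher in rows ABEF, against 20.6% of all genes, with a list median of 1.53 on the log2 scale. Sox9, the factor that marks the progenitor epithelium, had 36.0, 80.5 and 81.7 CPM in rows ABEF, against 41.1, 26.4 and 48.2 CPM in rows CG. EA01 pointed the other way, so that Sox9 had no single direction. Anxa2, a calcium-dependent membrane-binding protein, had 2906 counts in rows ABEF and 0 in rows CG, and was not called (edgeR quasi-likelihood adjusted p = 0.234). On the floor of 3 counts it was at least 440-fold higher, a bound for counting error only, and 1 cell gave 18.7% of its counts in rows ABEF.

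For Fev both the level and the share of cells were lower in rows ABEF, the level by little on EA01 and EA02. Its summed level was 313, 296 and 92.1 CPM in rows ABEF, against 320, 297 and 245 CPM in rows CG. The level was lower in 3 of 3 plates, but the sets overlap (log2 difference -0.46, edgeR quasi-likelihood adjusted p = 0.776). Its share of cells at 20 CPM or more was 15 of 46, 10 of 46 and 6 of 44 in rows ABEF, against 12 of 21, 10 of 20 and 11 of 23 in rows CG, lower in 3 of 3 plates. The mean difference of the shares was -29.0 percentage points (exact two-sided permutation p = 0.25). The endocrine transcription factor list of 21 tested genes split, with a median of -0.46 and 0 called by edgeR. On all 3 plates 6 were higher and 7 lower in rows ABEF, against 20.6% and 14.9% of all genes. At an unadjusted p under 0.05 the list had 4 higher and 3 lower genes, against 5.11% and 3.70% of all genes. DESeq2 called 3 higher and 6 lower, against 10.9% and 7.55%. Isl1, a LIM homeodomain factor of islet cells, had 783, 433 and 430 CPM in rows ABEF, against 1360, 1323 and 1312 CPM in rows CG, with an edgeR quasi-likelihood adjusted p of 0.106.

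The beta list of 10 tested genes had 3 lower calls, Iapp, Ins1 and G6pc2. On all 3 plates 8 members were lower in rows ABEF, with a median log2 difference of -5.32. Over all genes 14.9% were lower on all 3 plates, 20.6% were higher and 0.147% were called lower, which also applies to the next lists. Pdx1 and Nkx6-1, which specify beta cells, had mixed directions. The alpha list of 9 tested genes had 1 lower call, Slc38a5, and 6 members lower on all 3 plates with a median of -1.49. Gcg, which encodes glucagon, did not keep 1 direction. It had 0.203, 0.0459 and 324 CPM in rows ABEF, against 5103, 4695 and 54.4 CPM in rows CG, and 1 cell gave 99.9% of its counts in rows ABEF. Sst, Ppy and Ghrl, the somatostatin, pancreatic polypeptide and ghrelin genes, likewise had mixed directions over the plates. In the hormone list 2 of 11 tested genes were called lower, Iapp and Ins1, 6 were lower on all 3 plates, and Cck was the 1 that was higher on all 3. At an unadjusted p under 0.05, 6 beta, 4 alpha and 6 hormone genes were lower, against 3.70% of all genes. DESeq2 called 7 lower in each of these lists, against 7.55% of all genes. By either measure 1 hormone gene was higher, against 5.11% and 10.9% of all genes.

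Most of the granule and exocytosis list had one direction. Of 21 tested genes, 4 were called lower, Scg2, Scg3, Pcsk2 and Cpe, 18 were lower in rows ABEF on all 3 plates and 0 were higher, with a median of -1.51. Over all genes 14.9% were lower on all 3 plates, 20.6% were higher and 0.147% were called lower. DESeq2 called 15 lower, against 7.55% of all genes. Chgb, chromogranin B, had 512, 297 and 380 CPM in rows ABEF, against 1066, 1112 and 1085 CPM in rows CG (edgeR quasi-likelihood adjusted p = 0.0850). Chga, chromogranin A, had 422, 171 and 298 CPM in rows ABEF, against 442, 355 and 427 CPM in rows CG, with overlap between plates.

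**Figure D2:**
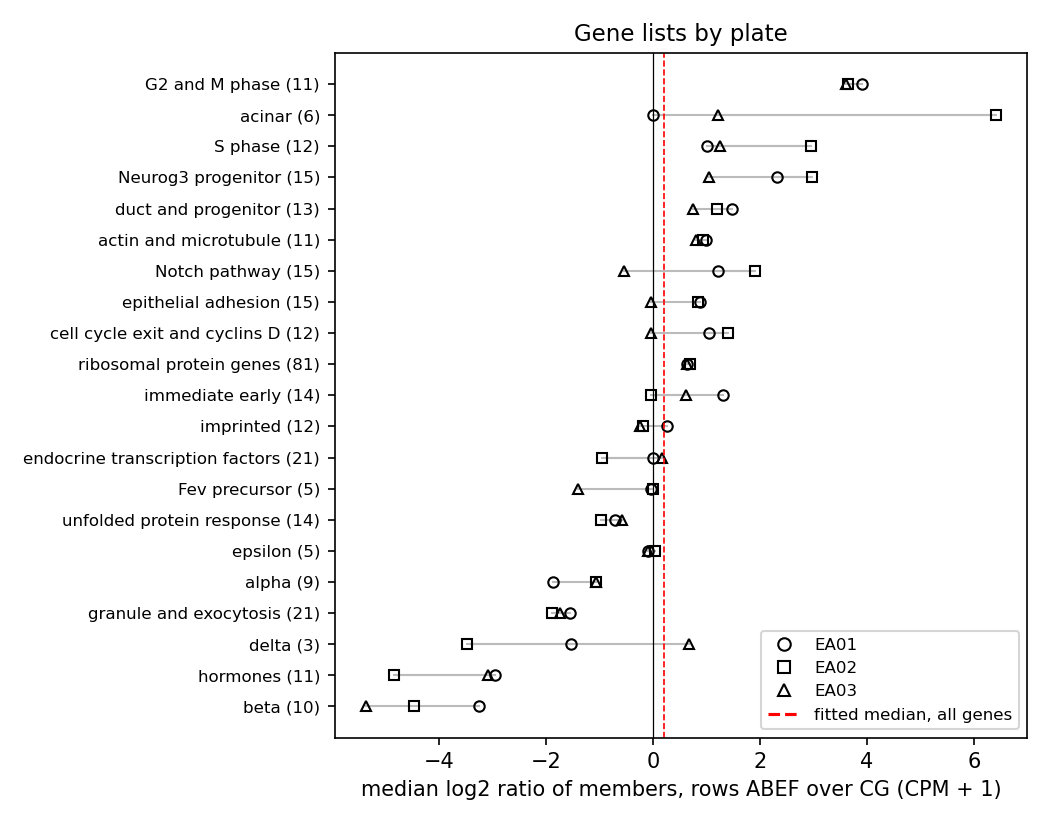
Median log2 ratio of the tested members of each gene list on the horizontal axis, rows ABEF over rows CG and computed from CPM + 1, with 1 symbol per plate, the number of tested members in brackets and a dashed line at the fitted median of all genes, 0.20. The beta list lies at -3.26, -4.47 and -5.37 on EA01, EA02 and EA03, the granule list at -1.55, -1.90 and -1.75, and the Neurog3 progenitor list at 2.32, 2.98 and 1.05.

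Genes of cell division were low and uneven. The S phase list had 12 tested genes, with a fitted median of 3.39. On all 3 plates 6 were higher in rows ABEF and 0 were lower, against 20.6% and 14.9% of all genes. Plate by plate, from CPM + 1, the S phase median was 1.01, 2.95 and 1.25 on EA01, EA02 and EA03. The G2 and M phase list had 11, of which 7 were higher on all 3 plates, with a fitted median of 7.72, or 7.06 with the 4 genes at 0 counts in rows CG placed at their floor. Plate by plate, from CPM + 1, it was 3.91, 3.64 and 3.61. The fitted medians depended on the processing. Over the alternatives run, the S phase median ran from 1.22 to 5.88, and the G2 and M phase median from -1.76, for rows A and B against row C, to 10.80, without EA03. No gene of either list was called by edgeR. At an unadjusted p under 0.05, 1 S phase and 5 G2 and M phase genes were higher, against 5.11% of all genes. DESeq2 called 4 and 8 higher, against 10.9%. Cenpe, a kinesin of the mitotic spindle, had 15.04, 14.5 and 35.4 CPM in rows ABEF and 0 CPM in rows CG of each plate, at least 218-fold higher on the floor of 3 counts. Mcm3, a subunit of the replicative helicase, had 35.0, 116 and 17.4 CPM in rows ABEF and 0 CPM in rows CG of each plate, at least 569-fold higher. Both bounds cover counting error only, and 1 cell gave 33.7% of the Cenpe counts and 1 cell 18.6% of the Mcm3 counts. For these 2 genes no count was seen in the 64 cells of rows CG, whereas Ube2c and Ccnb2 had counts there on EA03.

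Among genes of cell cycle exit, 1 of 12 tested was called, Gadd45g, against 0.0644% of all genes called higher. On all 3 plates 5 were higher, against 20.6% of all genes, with a median of 0.76. Gadd45a, of the same family, had 158, 393 and 347 CPM in rows ABEF, against 0.0971, 40.1 and 65.2 CPM in rows CG (edgeR quasi-likelihood adjusted p = 0.403). The actin and microtubule list had 1 call of 11, Tmsb4x, against the same 0.0644%. It had 9 genes higher on all 3 plates, against the same 20.6%, and a median of 1.02. Stmn1, which takes microtubules apart, had 170, 217 and 238 CPM in rows ABEF, against 31.9, 14.4 and 45.5 CPM in rows CG (edgeR quasi-likelihood adjusted p = 0.0909), and its 12 single rows of rows ABEF all lay above the 6 of rows CG.

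In the unfolded protein response list of 14 tested genes the median was -0.74. On all 3 plates 7 were lower in rows ABEF and 2 were higher, against 14.9% and 20.6% of all genes. None was called by edgeR. At an unadjusted p under 0.05, 6 were lower, against 3.70% of all genes, and DESeq2 called 7 lower, against 7.55%. Hspa5, the chaperone BiP of the endoplasmic reticulum, had 593, 332 and 596 CPM in rows ABEF, against 1020, 1419 and 1374 CPM in rows CG. The Notch list had 5 of 15 tested genes higher and 1 lower on all 3 plates, against 20.6% and 14.9% of all genes. Its median was 0.82 and edgeR called 0, with 3 higher at an unadjusted p under 0.05, against 5.11% of all genes, and 4 called higher by DESeq2, against 10.9%. Imprinted genes went both ways, 6 of 12 higher and 5 lower on all 3 plates. H19 was the 1 called, against 0.0644% of all genes called higher. The immediate early list had 4 of 14 tested genes higher and 0 lower on all 3 plates. The epithelial adhesion list had 6 of 15 higher and 3 lower. The medians of these last lists were 0.53 and 0.79. Over all genes 20.6% were higher and 14.9% lower on all 3 plates, which applies to each of these lists. Neither had a call by edgeR, while DESeq2 called 3 immediate early genes higher and 3 adhesion genes higher and 2 lower, against 10.9% of all genes higher and 7.55% lower. At an unadjusted p under 0.05 there were 1 higher immediate early gene, and 3 higher and 1 lower adhesion genes, against 5.11% and 3.70% of all genes. Nnat, the imprinted neuronatin gene that is also made in beta cells, had 84.5, 70.2 and 29.6 CPM in rows ABEF, against 423, 1469 and 809 CPM in rows CG (edgeR quasi-likelihood adjusted p = 0.0669).

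Shares of cells showed how the sums were made up. A cell was counted for a gene at 20 CPM or more, and for the hormones Ins1, Ins2, Gcg, Sst, Ppy and Ghrl at 1000 CPM or more, with exact Clopper-Pearson intervals that cover counting error only. Neurog3 reached its level in 37 of 46, 38 of 46 and 35 of 44 cells of rows ABEF on EA01, EA02 and EA03, against 4 of 21, 5 of 20 and 9 of 23 cells of rows CG. In all that was 80.9% of cells (73.3 to 87.1%) in rows ABEF and 28.1% (17.6 to 40.8%) in rows CG. The mean difference over plates was 53.1 percentage points, from 40.4 to 61.4. Iapp went the other way, in 4 of 46, 4 of 46 and 4 of 44 cells of rows ABEF, against 17 of 21, 14 of 20 and 10 of 23 cells of rows CG, a mean difference of -56.0 points. For Neurog3 and for Iapp all 3 plates pointed the same way, and the exact two-sided permutation p was 0.25, the smallest that 3 plates allow.

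The shares of Btbd17, Slc38a5, Scg2, Pcsk2, Spp1 and the GFP reporter followed the sums. Btbd17 was at 20 CPM or more in 79 of 136 cells of rows ABEF and 9 of 64 cells of rows CG. Slc38a5 was at that level in 50 of 136 cells of rows ABEF and 51 of 64 of rows CG, so that its sum in rows ABEF came from a sizable minority. Scg2 reached it in 6 of 136 cells of rows ABEF and 21 of 64 of rows CG. Pcsk2 reached it in 31 of 136 cells of rows ABEF and 45 of 64 of rows CG. Spp1 was at that level in 44 of 136 cells of rows ABEF, with 22 of 46 on EA02 alone, and in 5 of 64 cells of rows CG. Reads of the GFP reporter reached 20 CPM in 7 of 46, 12 of 46 and 13 of 44 cells of rows ABEF and in 0 of 64 cells of rows CG. Sox9, whose summed level had no single direction, was at 20 CPM or more in 57 of 136 cells of rows ABEF and 16 of 64 of rows CG, higher in 3 of 3 plates. Neurod1 did not follow its sums, which were 812, 622 and 716 CPM in rows ABEF, against 503, 601 and 641 CPM in rows CG. Its share of cells at 20 CPM or more was lower in rows ABEF on 2 plates and higher on 1.

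Cells were also sorted by pairs of genes, at the same levels. These are 20 CPM for Neurog3, Spp1 and Iapp, and 1000 CPM for Ins1, Ins2, Gcg, Sst, Ppy or Ghrl as a hormone. Pyy, with a mean of 1472 CPM in rows ABEF and 4815 CPM in rows CG, was not counted as a hormone, nor were Iapp, Cck and Gast. Neurog3 without a hormone was found in 109 of 136 cells of rows ABEF, 80.1%, and 15 of 64 cells of rows CG, 23.4%. A hormone without Neurog3 was found in 8 of 136 cells of rows ABEF, 5.88%, and 27 of 64 cells of rows CG, 42.2%. Both at once were rare at these unequal levels, in 1 cell of rows ABEF and 3 of rows CG. Neither reached its level in 18 of 136 cells of rows ABEF and 19 of 64 of rows CG. Each plate held the first class more often in rows ABEF and the second more often in rows CG. Spp1 without Iapp was found in 40 of 136 cells of rows ABEF and 3 of 64 of rows CG, and both at once in 4 of rows ABEF and 2 of rows CG. Iapp without Spp1 was found in 8 cells of rows ABEF and 39 of rows CG. Cells with 2 or more hormones were 2 of 136 in rows ABEF and 9 of 64 in rows CG. Rows ABEF thus also held hormone cells, and rows CG also held Neurog3 cells, 4 on EA01, 5 on EA02 and 9 on EA03.

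**Figure D3:**
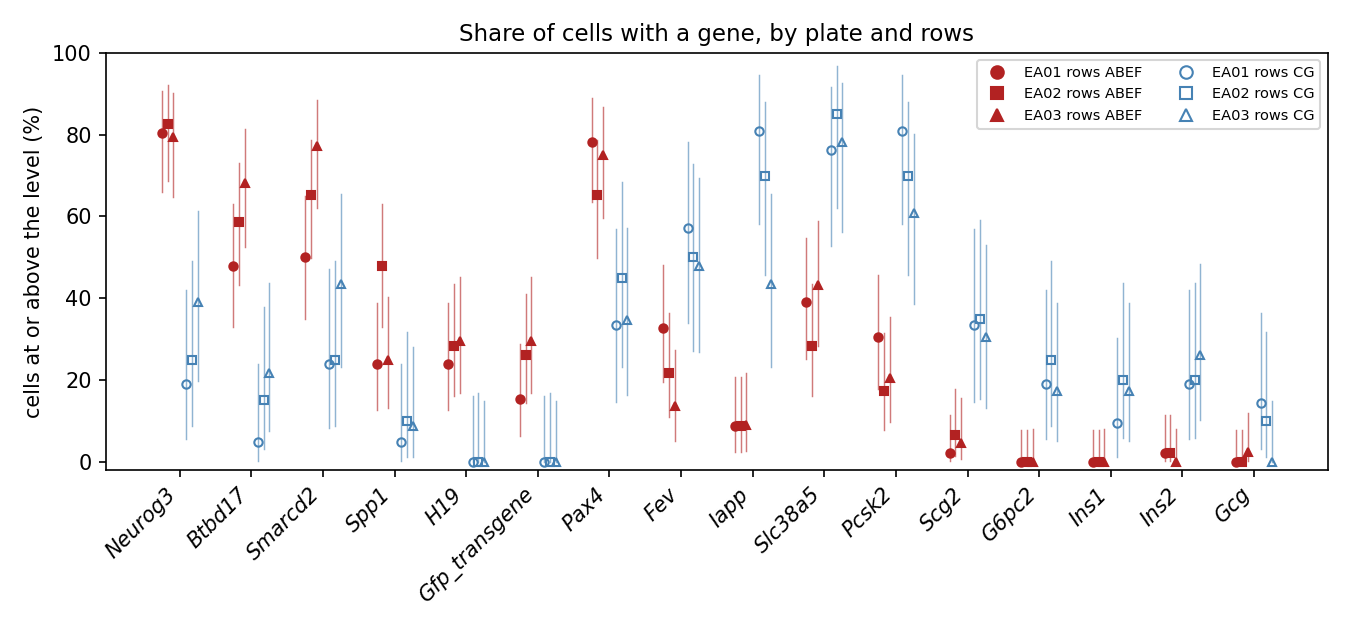
Share of cells in percent with a gene at or above its level, with 1 point for each plate, rows ABEF left of rows CG for each gene, and error bars for the exact 95% interval of each share. Neurog3 lies at 79.5 to 82.6% of cells in rows ABEF and 19.05 to 39.1% in rows CG, and Iapp at 8.70 to 9.09% in rows ABEF and 43.5 to 81.0% in rows CG.

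Single rows showed whether 1 row carried a difference. Of the 23 called genes, 16 had all 12 single rows of rows ABEF on one side of all 6 single rows of rows CG, 3 of the 7 higher and 13 of the 16 lower. Over all genes tested this held for 67 higher and 28 lower, 0.617% and 0.258%, together 0.875%. The called genes were picked from sums of these same rows, so their larger share is not an independent check. Neurog3 had a lowest, median and highest single row of 1381, 2997 and 5168 CPM in rows ABEF, against 154, 632 and 1847 CPM in rows CG. The overlap came from row G of EA03, which lay above row A of EA01. Slc38a5 had 129, 1012 and 2213 CPM in single rows of rows ABEF, against 3840, 3955 and 4574 CPM in rows CG, with no overlap.

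Rows A and E were also set beside rows B and F within rows ABEF, as a description with no test. Neurog3 and Tmsb4x were lower in row A than B and in row E than F on each of the 3 plates, 6 of 6 pairs of neighbouring rows. Slc38a5 and Cpe were higher in rows A and E in 6 of 6 pairs. Slc38a5 had 1307, 1337 and 2213 CPM in row A of EA01, EA02 and EA03, against 1130, 410 and 895 CPM in row B, and 1707, 789 and 1581 CPM in row E, against 165, 751 and 129 CPM in row F. Over all genes tested, 285 were higher in rows A and E in all 6 pairs, 2.62%, and 126 were lower, 1.16%, and the genes named here were picked from these after their values were seen. The median counts per cell moved with these rows, at 519097 to 604223 in rows A and E, against 448934 to 528622 in rows B and F, and higher in rows A and E in 6 of 6 pairs. Its part in these differences was not tested.

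**Figure D4:**
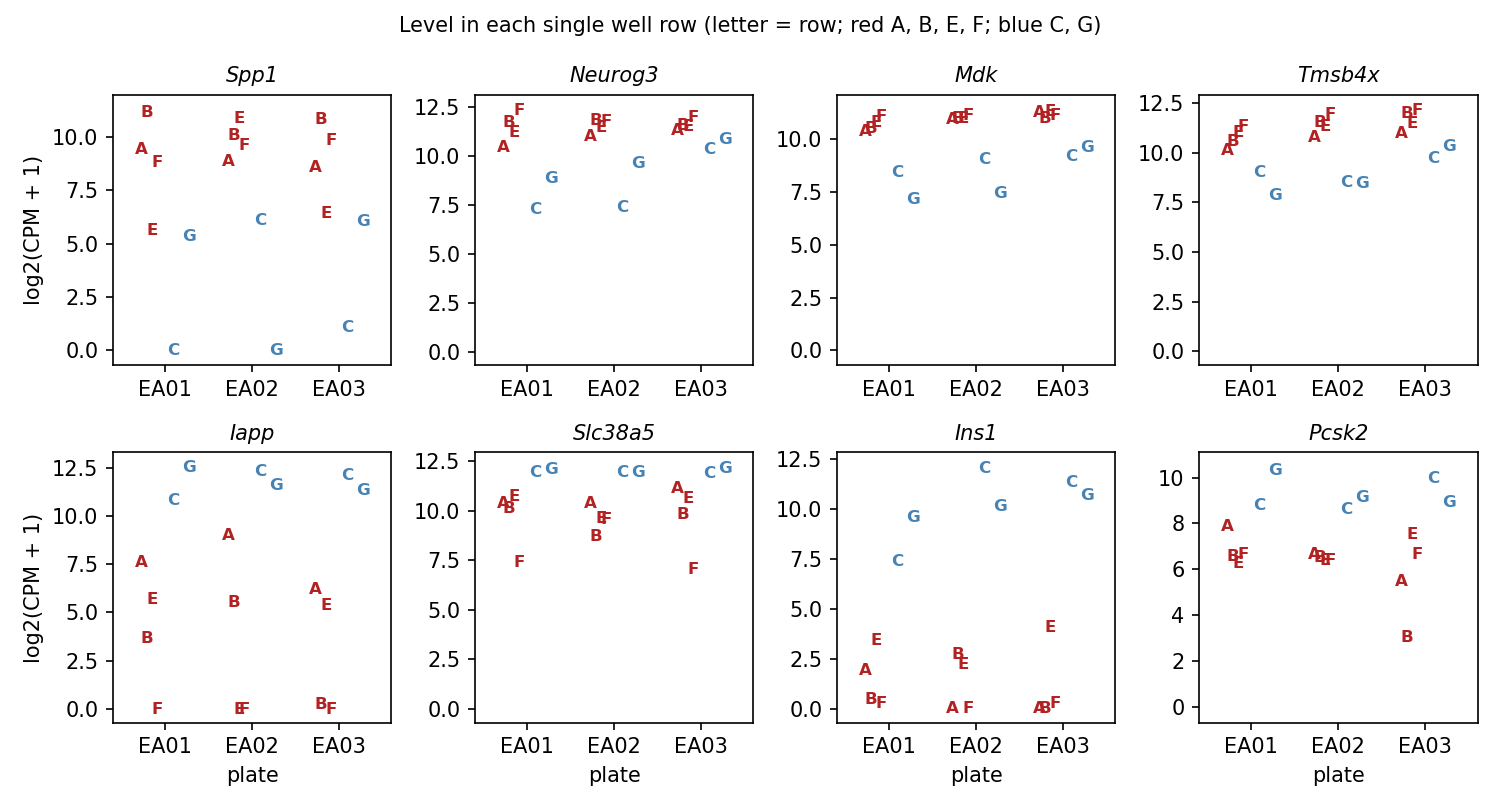
Level in each single well row of each plate, as log2(CPM + 1) on the vertical axis, for Spp1, Neurog3, Mdk, Tmsb4x, Iapp, Slc38a5, Ins1 and Pcsk2, with the row letter as the symbol and rows ABEF left of rows CG on each plate. Neurog3 is at 1381 CPM or more in each of the 12 single rows of rows ABEF, and Slc38a5 at 3840 CPM or more in each of the 6 of rows CG.

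The ribosomal protein genes, a group picked after the values were seen, were tested in 81 of 84 cases. None was called by edgeR. At an unadjusted p under 0.05, 64 were higher and 0 lower, against 5.11% and 3.70% of all genes, and DESeq2 called 65 higher, against 10.9%. On all 3 plates 74 of them were higher in rows ABEF, against 20.6% of all genes. Their median log2 difference was 0.69, against 0.20 over all genes. Their summed level was 50674, 56219 and 52793 CPM in rows ABEF, against 31868, 35158 and 34792 CPM in rows CG. They made up 35 of the 67 genes whose single rows of rows ABEF all lay above those of rows CG. Many have processed copies in the genome, so reads may be shared between copies. The lower number of genes per cell in rows ABEF moved with this group, and its part was not tested.

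On other plates of the series, described without a test, the same row letters gave mixed orders. On EA04, also at E15.5 but grouped as the duct plate, Spp1 was at 1006 CPM in rows ABEF and 2343 CPM in rows CG. Neurog3 was at 0.233 CPM in rows ABEF and 0 CPM in rows CG of EA04, and Iapp and Ins1 were at 0 CPM in both. On EA05, which shares stage, genotype and the endocrine code with EA02, rows ABEF had 9102 CPM of Iapp and rows CG 9163 CPM. Spp1 was at 18.8 CPM in rows ABEF and 0 CPM in rows CG of EA05, and Neurog3 at 82.9 CPM and 504 CPM. EA06 and EA07 held E17.5 cells of the Neurog3-Cre, Rosa-mTmG strain. On EA06, rows ABEF had 3271 CPM of Iapp and rows CG 870 CPM, the reverse of the order on EA01 to EA03. On EA07 rows ABEF had 1260 CPM of Neurog3 and rows CG 2972 CPM, also the reverse. On both EA06 and EA07, Iapp, Ins1 and Slc38a5 were higher and Neurog3 lower in rows ABEF than in rows CG. Spp1 on EA07 kept the order of EA01 to EA03, at 1602 CPM in rows ABEF and 496 CPM in rows CG. So did Mdk on EA06, at 629 CPM and 616 CPM, while Spp1 on EA06 and Mdk on EA07 had the reverse order.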

How the data were processed

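Single-cell RNA was measured in 495 wells, of which 200 were used. The authors deposited raw counts, as whole reads for each of 23002 genes in each cell. Reads were handled with STAR, HTSeq and FastQC against mm10, per the submitters' processing notes, with tool versions not given in the sources used here. Whether counting used strand is not stated. Counts without molecular identifiers include PCR copies, so intervals and floors cover counting error only. No pair of cells held identical values.

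The row letter and plate came from the sample titles. The labels tie both sets of a plate to that plate, so plate was a block. Counts were summed per plate and set, filtered with filterByExpr, scaled with TMM and fitted in edgeR 4.0.16 (glmQLFit and glmQLFTest, R 4.3.3), with Benjamini-Hochberg adjustment over 10862 genes. The SE was taken from the log2 difference and the F value. DESeq2 1.42.0 and limma 3.58.1 were alternatives. CPM is a count divided by the total of its sum or cell, times 1000000. Shares used exact swaps within plates.

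The members and 27 gene lists were chosen with earlier results of these data known, so no list was tested as a set. The genes named are, in each direction, the 15 called genes of largest difference at 50 CPM or more and at 10 CPM or more in 25% of cells, up to 4 per list, and a fixed set. Ppp1r1a, Btbd17, Hes6, Smarcd2, Chga, Chgb, Neurod1, Isl1, Cck, Ube2c, Ccnb2 and the ribosomal protein genes were named after their values were seen. Gene positions are from GENCODE M21.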

Additional observations from a re-analysis of the deposited data

How the results depend on the processing

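Higher and lower calls in rows ABEF, 7 and 16 as reported, were, by adjusted p alone, 1186 and 820 with DESeq2, 20 and 33 with no filter on low counts, 4 and 10 with a mean of at least 20 CPM, and 17 and 30 with cells thinned to equal counts. limma on mean cell CPM gave 75 and 70 with a pseudocount of 1, and 101 and 96 with 5. Leaving out 1 plate gave 0 to 42 higher and 0 to 28 lower calls. Without the replicate block there were 14 and 32 calls, of which 5 and 13 were among those reported. Rows A and B against C gave 5 and 7, rows E and F against G gave 1 and 4, and upper and lower rows as 6 blocks gave 70 and 42. With one direction on all 3 plates required, as for the reported calls, an adjusted p under 0.01 gave 1 and 0, and under 0.1 it gave 15 and 30. DESeq2 size factors in edgeR gave 7 and 18, and leaving out Rn45s gave 7 and 16. Leaving out the acinar and the mesenchyme cell, an alternative chosen after seeing the data, gave 6 and 15. All 23 called genes kept their sign in each of these fits. The median of all genes ran from 0.03 without the block to 0.38 for rows E and F against G.

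Some uncalled values changed sign. The Ppy share difference was 0.725 points at 5000 CPM. Over the fits that leave out 1 plate, log2 differences ran from -6.71 to 2.36 for Sst, -4.41 to 0.588 for Ghrl, -0.70 to 0.0063 for Fev and -0.44 to 0.32 for Nkx6-1. Without the block Ghrl was 0.21. The cause was not tested. With 3 plates a share cannot pass 0.05 in an exact permutation test, and 64 cells of rows CG limit what a share of 0 can show. The meaning of the row letters is not given in the labels, so sort gate, well position and cell makeup cannot be told apart.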
